A study of Mus musculus with 6 samples.

Results

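The Cyp2a and Cyp2b genes, 9 neighbouring cytochrome P450 genes of mouse chromosome 7, were described in liver RNA of mice that had undergone either a sham operation or VSG (vertical sleeve gastrectomy, which takes out the larger part of the stomach). The members were taken by name from the 55385 genes counted (Cyp2a4, Cyp2a5, Cyp2a12, Cyp2a22, Cyp2b9, Cyp2b10, Cyp2b13, Cyp2b19 and Cyp2b23), and all 9 were found. The family was selected on its lower counts in the VSG than in the sham libraries, which were already known, so the difference between the operations is given as a description, and no count of members past a threshold is used as support for it. All 6 animals were male wild-type C57BL/6 mice put on a high-fat diet at 6 to 8 weeks of age. They ate it for 10 weeks before the operation and for 12 weeks after it. Of these, 3 were sham-operated (libraries Sham 1, 2 and 3) and 3 had VSG (libraries VSG 4, 5 and 6). Each library was made from about 40 mg of liver of 1 animal and held 22804397 to 24191778 counts.

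Cytochrome P450 enzymes of the CYP2 family are haem proteins of the endoplasmic reticulum that oxidise drugs, steroids and other lipophilic molecules, and the liver is their main site. They take electrons from the flavoprotein Por. In mouse liver, Cyp2b10 is the textbook target of the constitutive androstane receptor CAR (gene Nr1i3), which shares many targets with the pregnane X receptor PXR (gene Nr1i2). Cyp2a4, Cyp2b9 and Cyp2b13 are known as genes that female livers express more strongly than male livers, under the pattern of growth hormone secretion.

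The 9 genes lay within 1140 kb (chr7:25897620-27037375, GRCm38, GENCODE release M21) and formed pairs of close copies. The coding sequences of Cyp2a4 and Cyp2a5 were 98.4% identical, with 23 mismatches in 1482 bases. Those of Cyp2a12 and Cyp2a22 were 97.0% identical, with 45 mismatches in 1476 bases. Cyp2b9 and Cyp2b13 were 92.7% identical, with 107 mismatches in 1473 bases. The other Cyp2b pairs lay between 85.1% and 88.9%, and a Cyp2a gene shared 67.1% to 70.9% of aligned bases with a Cyp2b gene.

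**Figure D1:**
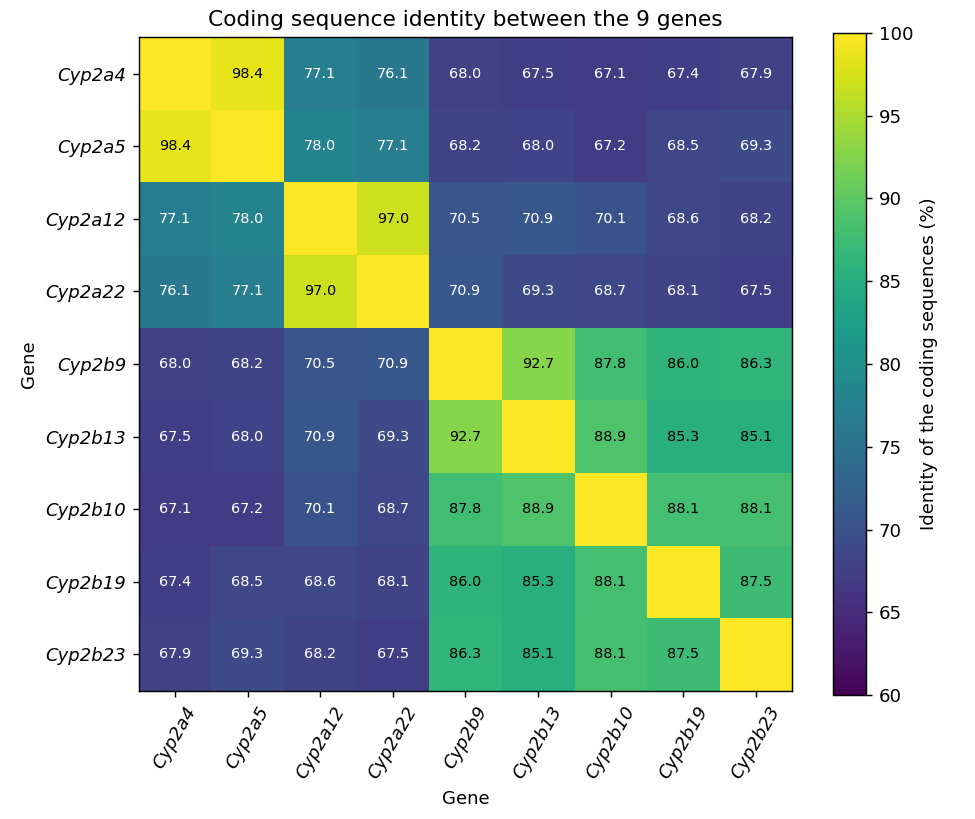
Identity of the coding sequences of the 9 genes, in percent of aligned bases, from the GENCODE M21 transcripts. The colour scale runs from 60 to 100%, and the 3 pairs of close copies, Cyp2a4 with Cyp2a5 (98.4%), Cyp2a12 with Cyp2a22 (97.0%) and Cyp2b9 with Cyp2b13 (92.7%), stand out.

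The copies were alike upstream of their starts too. The RefSeq promoter windows (GRCm38.p6, 250 bases before to 50 bases after the RNA start, all 9 genes matched) of Cyp2b9 and Cyp2b13 differed at 2 of 300 aligned bases. They are printed because 1 of these genes kept some counts in each VSG library and the other had none, as given further on. Capitals mark the bases at which each differs from the other, and each sequence runs 5′ to 3′ on the strand of its gene.
Cyp2b9 (chr7:26173159-26173458, plus strand): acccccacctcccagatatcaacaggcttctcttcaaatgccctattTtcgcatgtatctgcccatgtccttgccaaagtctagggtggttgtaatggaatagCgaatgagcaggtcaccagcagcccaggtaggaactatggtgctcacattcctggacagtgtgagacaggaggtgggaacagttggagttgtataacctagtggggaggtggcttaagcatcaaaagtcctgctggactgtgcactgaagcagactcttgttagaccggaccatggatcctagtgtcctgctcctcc
Cyp2b13 (chr7:26061245-26061544, plus strand): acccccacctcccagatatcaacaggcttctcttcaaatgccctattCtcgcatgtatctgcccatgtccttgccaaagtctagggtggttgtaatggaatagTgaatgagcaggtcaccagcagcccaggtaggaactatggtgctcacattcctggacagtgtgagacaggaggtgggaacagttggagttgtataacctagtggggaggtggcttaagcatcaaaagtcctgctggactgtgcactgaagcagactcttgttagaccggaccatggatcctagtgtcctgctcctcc

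The windows of Cyp2a5 and Cyp2a4 differed at 5 of 299 aligned bases, marked in the same way, with the first base of Cyp2a4 and the last of Cyp2a5 unaligned and in lower case. This pair is printed because the sham libraries divided its counts very unequally.
Cyp2a5 (chr7:26835089-26835388, plus strand): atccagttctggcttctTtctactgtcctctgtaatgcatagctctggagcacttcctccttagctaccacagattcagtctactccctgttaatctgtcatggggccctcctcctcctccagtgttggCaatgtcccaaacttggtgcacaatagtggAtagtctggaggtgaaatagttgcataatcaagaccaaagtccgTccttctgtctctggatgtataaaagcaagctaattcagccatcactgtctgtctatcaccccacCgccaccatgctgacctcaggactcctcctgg
Cyp2a4 (chr7:26306942-26307241, plus strand): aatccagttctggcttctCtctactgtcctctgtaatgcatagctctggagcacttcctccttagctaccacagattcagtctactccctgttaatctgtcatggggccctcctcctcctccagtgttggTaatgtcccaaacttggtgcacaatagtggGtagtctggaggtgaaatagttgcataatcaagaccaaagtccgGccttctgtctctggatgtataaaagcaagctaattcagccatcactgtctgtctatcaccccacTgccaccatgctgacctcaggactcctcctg

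The windows of Cyp2a12 and Cyp2a22 differed at 23 of 282 aligned bases, and 7 bases of Cyp2a12 opposite a gap are in capitals as well. The first 18 bases of Cyp2a22 and the last 11 of Cyp2a12 were not aligned and stand in lower case, so they are not shared sequence. This pair is printed because its members had the smallest and one of the larger differences between the operations among the Cyp2a genes.
Cyp2a12 (chr7:27028840-27029139, plus strand): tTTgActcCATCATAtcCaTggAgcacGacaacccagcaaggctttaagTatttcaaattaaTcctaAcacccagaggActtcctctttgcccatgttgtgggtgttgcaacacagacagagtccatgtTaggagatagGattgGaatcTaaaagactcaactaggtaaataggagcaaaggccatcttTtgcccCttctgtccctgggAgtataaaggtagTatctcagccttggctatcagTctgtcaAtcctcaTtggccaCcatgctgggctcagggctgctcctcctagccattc
Cyp2a22 (chr7:26939337-26939636, minus strand): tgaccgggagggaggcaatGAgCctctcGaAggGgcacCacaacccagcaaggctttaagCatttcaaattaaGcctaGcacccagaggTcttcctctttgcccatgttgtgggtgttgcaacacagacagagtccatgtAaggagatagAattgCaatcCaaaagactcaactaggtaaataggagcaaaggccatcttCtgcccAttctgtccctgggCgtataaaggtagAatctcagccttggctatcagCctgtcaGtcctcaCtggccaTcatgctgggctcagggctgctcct

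The Cyp2b10 window was less like that of Cyp2b9, with 66 mismatches in 289 aligned bases (77.2% identity). No Cyp2a window could be aligned with a Cyp2b window over 150 or more bases. Letters of 5 motifs were then searched on both strands of the windows. The TATA box letters TATAAA occurred in all 4 Cyp2a windows, 28 to 39 bases before the start, and in no Cyp2b window, against 13.6% of 32851 promoter windows of the table. The C/EBP letters TTGCNNAA occurred in 7 of the 9 windows, those of Cyp2a4, Cyp2a5 and all 5 Cyp2b genes, against 10.8% of all windows. The nuclear receptor letters AGGTCA occurred in 6 (all windows 16.3%), and the HNF1 letters GTTAAT in 2, Cyp2a4 and Cyp2a5 (7.10%). The STAT letters TTCNNNGAA, a motif known from growth hormone signalling, were in none of these 9 windows (8.30%). Close copies share such letters by their common sequence, so the 9 windows are not independent, and a match says only that the letters are there.

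All 7 members with any count had lower counts in each VSG library than in each sham library. The difference was 2.0-fold for Cyp2a12, 7.61-fold for Cyp2a5, 50.4-fold for Cyp2a22 and 87.1-fold for Cyp2b9, and the VSG libraries held no more than 3 counts each of Cyp2a4 and none of Cyp2b10 and Cyp2b13. The 4 Cyp2a genes together had 1022 ± 205 CPM in the sham group and 318 ± 107 CPM in the VSG group, 3.22-fold less (CPM are counts scaled to library size with TMM factors, as mean ± SD, n = 3). The Cyp2b genes together had 268 ± 173 and 2.68 ± 0.930 CPM, 100.2-fold less. A lower share of liver cells with these transcripts and less of the transcripts per cell cannot be told apart in bulk RNA. In the test across all 14454 genes (edgeR quasi-likelihood, Benjamini-Hochberg), 6 members passed an adjusted p of 0.05, all lower after VSG. Of all genes tested, 14.7% passed in either direction, 7.87% were lower and 6.79% higher. Every VSG library was below every sham library in 7 of the 7 members tested and in 19.8% of all genes tested. Since the members were chosen with this contrast known, nothing is read from either comparison. The number of members past the threshold was 3 without Sham 3 and 2 without VSG 6. In these fits 1.07% and 1.42% of all genes tested passed. All 7 fitted log2 fold changes stayed negative whichever library was left out.

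**Figure D2:**
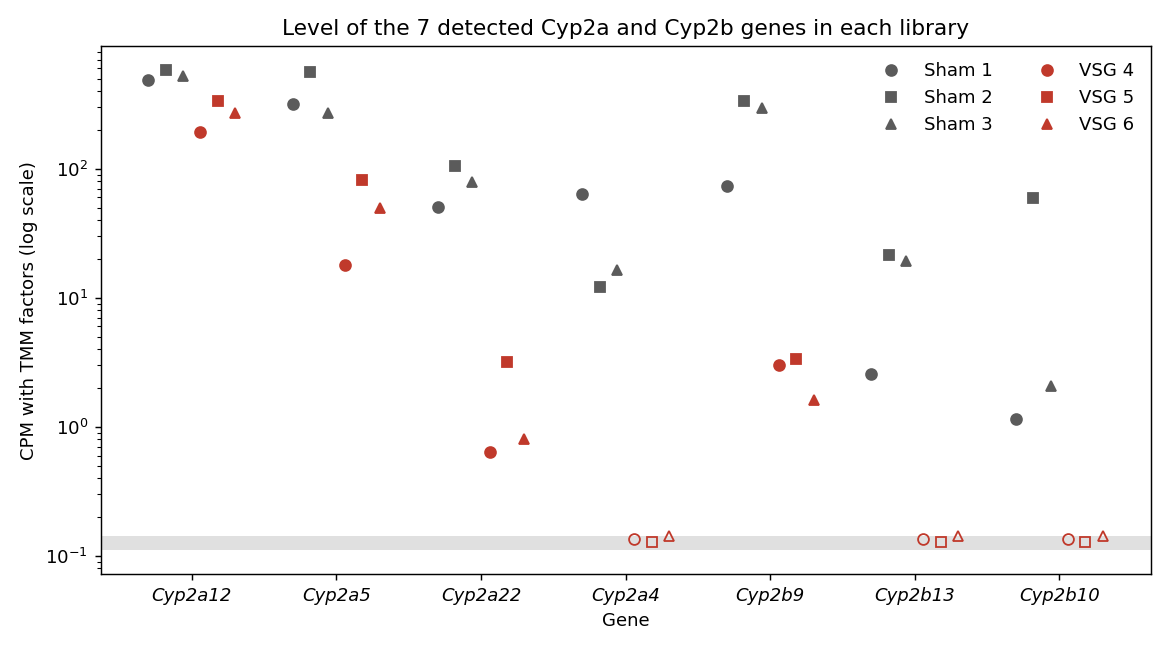
CPM with TMM factors (log axis) of the 7 detected genes in each library, sham in grey and VSG in red, with 1 marker per animal. Open markers stand at 3 counts, the floor of the library, for libraries with 3 or fewer counts, and the grey band spans the floors of 0.111 to 0.143 CPM. For each gene the red markers lie below the grey ones, and Cyp2b10 in Sham 2 stands at 59.0 CPM, above the other sham libraries at 1.15 and 2.09.

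Cyp2a5, the coumarin 7-hydroxylase of mouse liver, had 317, 559 and 268 CPM in Sham 1, 2 and 3. It had 18.1, 82.5 and 49.8 CPM in VSG 4, 5 and 6. The groups did not overlap, and VSG 4 was the lowest library. The means were 381 ± 156 and 50.1 ± 32.2 CPM, a log2 fold change of -2.93 (SE 0.57) or 7.61-fold lower. Per length, with the mRNA of the coding transcript, it had 189 ± 77.5 FPKM (CPM per kilobase) in sham and 24.9 ± 16.0 FPKM in VSG livers.

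Cyp2a4, a testosterone 15-alpha-hydroxylase and the close copy of Cyp2a5, had 1720, 266 and 432 counts in the sham libraries. In the VSG libraries it had 3, 3 and 0 counts, all at or under the floor of 3. Sham 1 was 5.23 times Sham 2 in CPM, the reverse of the order of most members. The sham mean was 30.7 ± 28.5 CPM, and the summed counts of 2418 and 6, scaled to library size, stood in a ratio of 356 (exact 95% interval 163 to 970 for counting error alone). Without Sham 1 the ratio was 160 (73.3 to 438). The ratio is given in place of the fitted fold because a fitted fold against counts this low depends on the small count added before taking logarithms.

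Cyp2a12, a testosterone 7-alpha-hydroxylase, was the most abundant member per length, at 317 ± 27.7 FPKM in sham and 158 ± 43.5 FPKM in VSG livers. The sham libraries held 13291, 12751 and 13770 counts of it, and the VSG libraries 4219, 7880 and 5678. The sham libraries differed by no more than 1.19 times in CPM, the smallest spread of the family. The means of 532 ± 46.5 and 266 ± 73.1 CPM gave a log2 fold change of -1.0 (SE 0.22), the smallest of the 7 members tested.

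Cyp2a22, its close copy, had 1367, 2284 and 2089 counts in the sham libraries. It had 14, 75 and 17 counts in the VSG libraries. The means were 78.1 ± 27.0 and 1.55 ± 1.44 CPM, a log2 fold change of -5.63 (SE 0.62) or 50.4-fold lower, and -6.77 without VSG 5. VSG 5 kept 3.21 CPM, against 0.633 and 0.811 in VSG 4 and VSG 6, and was 24.3-fold below the sham mean.

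Cyp2b9, a female-predominant steroid hydroxylase, was the most abundant Cyp2b gene in every library. It had 1991, 7279 and 7714 counts in the sham libraries. It had 67, 79 and 34 counts in the VSG libraries, which were above the floor and within 2.08 times of each other in CPM. The means were 233 ± 140 and 2.68 ± 0.930 CPM, a log2 fold change of -6.44 (SE 0.69) or 87.1-fold lower.

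Cyp2b13, the copy that shares nearly the same promoter window, had 69, 468 and 511 counts in the sham libraries and 0 in each VSG library. The sham mean was 14.4 ± 10.4 CPM, at least 106-fold above the VSG floor. Sham 1 was the low library for both genes, at 73.5 CPM for Cyp2b9 and 2.55 CPM for Cyp2b13.

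Cyp2b10, the CAR target, had 31, 1292 and 55 counts in the sham libraries and 0 in each VSG library. Of its sham counts, 93.8% were in Sham 2. The sham mean of 20.8 ± 33.1 CPM was at least 153-fold above the VSG floor, but without Sham 2 this bound was 11.9-fold. It was the 1 tested member that did not pass the threshold, and without Sham 2 it did pass.

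Cyp2b19, known from skin keratinocytes, and Cyp2b23 had no count in any of the 6 libraries. A count of 0 allows up to 3 counts, or 0.111 to 0.143 CPM per library, so an expression below that was not detectable at this depth.

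The order of the levels per length was Cyp2a12, Cyp2a5, Cyp2b9, Cyp2a22, Cyp2a4, Cyp2b10 and Cyp2b13 in sham livers, by mean FPKM. Over the sham libraries, the range of Cyp2a12 (292 to 347 FPKM) lay clear of that of Cyp2a5 (133 to 278). The ranges of Cyp2a5 and Cyp2b9 (39.2 to 177 FPKM) overlapped, as did those of Cyp2b9 and Cyp2a22 (28.1 to 58.1), though Cyp2b9 was the higher of these in each sham library, of Cyp2a22 and Cyp2a4 (6.99 to 36.5), of Cyp2a4 and Cyp2b10 (0.628 to 32.4), and of Cyp2b10 and Cyp2b13 (1.36 to 11.4). In VSG livers Cyp2a12 (114 to 200 FPKM), Cyp2a5 (8.97 to 41.0) and Cyp2b9 (0.865 to 1.80) did not overlap, and Cyp2a22 (0.353 to 1.79) overlapped Cyp2b9. These values use the length of the coding mRNA. The exon lengths deposited with the counts are longer for Cyp2a12 and Cyp2a22 (3457 and 3445 bases against 1681 and 1796), and with them Cyp2a5 would stand above Cyp2a12 in sham livers (184 against 154 FPKM).

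The share of the less abundant copy in the counts of its pair was compared between the libraries. Cyp2a4 was 16.7% of the Cyp2a4 and Cyp2a5 counts in Sham 1 (exact 95% interval 16.0 to 17.4), 2.13% in Sham 2 (1.88 to 2.40) and 5.77% in Sham 3 (5.25 to 6.32). In VSG 4 and VSG 5 it was 0.746% (0.154 to 2.17) and 0.155% (0.0320 to 0.453), and the 0 of 1044 counts in VSG 6 allow up to 0.287%. The intervals of Sham 2 and VSG 4 overlapped, so at this depth these 2 shares could not be told apart.

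Cyp2a22 was 9.33% (8.86 to 9.81), 15.2% (14.6 to 15.8) and 13.2% (12.6 to 13.7) of its pair with Cyp2a12 in Sham 1, 2 and 3. In VSG 4, 5 and 6 it was 0.331% (0.181 to 0.554), 0.943% (0.742 to 1.18) and 0.299% (0.174 to 0.478). Here the share was lower in each VSG library than in each sham library. The intervals of the 3 sham libraries did not overlap each other either, so animals of a group differed by more than counting error. Cyp2b13 was 3.35% (2.62 to 4.22), 6.04% (5.52 to 6.59) and 6.21% (5.70 to 6.76) of its pair with Cyp2b9 in the sham libraries. The 0 of 67, 79 and 34 counts in the VSG libraries allow shares of up to 4.48%, 3.80% and 8.82%, and the exact intervals reach 5.36%, 4.56% and 10.3%. Those of VSG 4 and VSG 5 lay below the intervals of Sham 2 and Sham 3 and overlapped that of Sham 1, and that of VSG 6 overlapped all 3 sham libraries. These intervals cover counting error only.

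**Figure D3:**
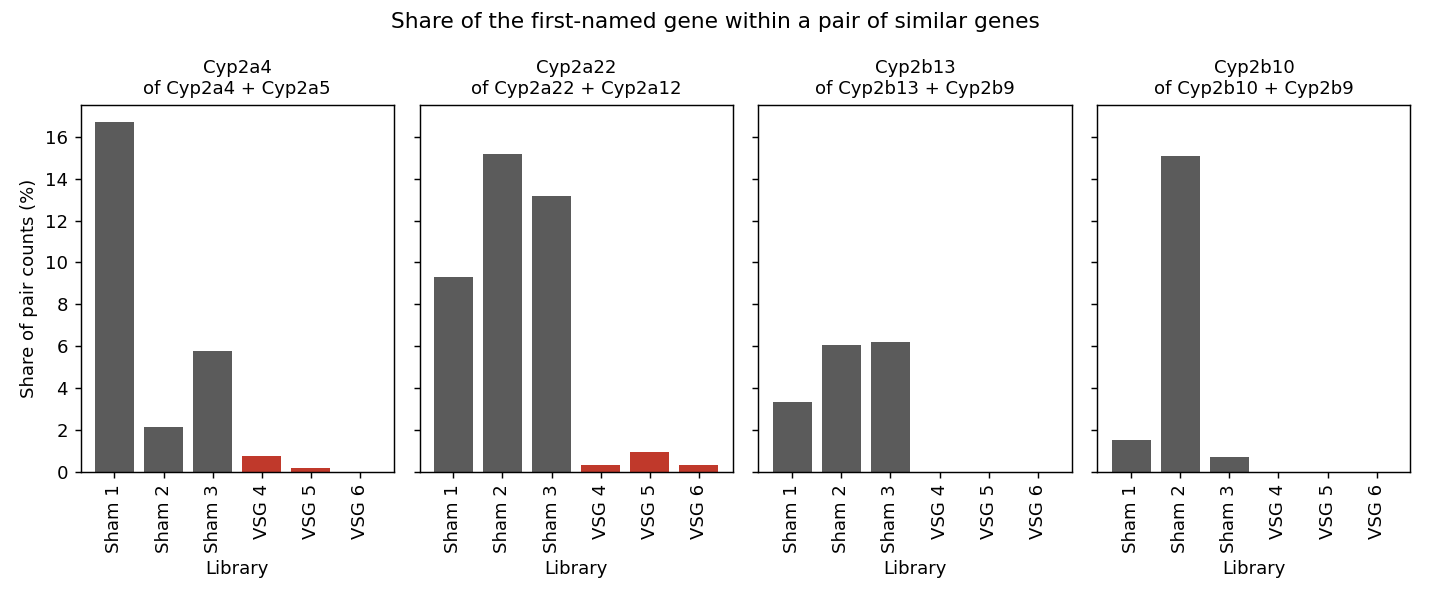
Share of the counts of a pair of similar genes held by the first-named gene in each library (percent), sham in grey and VSG in red. The Cyp2a22 share lies between 9.33 and 15.2% in sham and between 0.299 and 0.943% in VSG libraries, and the Cyp2b10 share of 15.1% stands out in Sham 2.

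How the authors' counting treated reads that fit more than 1 gene was not stated in the sources used here, nor was the read length. Of the 75-base windows of each spliced transcript, 22.1% of Cyp2a4, 25.5% of Cyp2a5, 14.3% of Cyp2a12 and 13.4% of Cyp2a22 occurred without a mismatch in another transcript. For Cyp2b9, Cyp2b10 and Cyp2b13 the shares were 5.16%, 3.32% and 16.4%, the last mostly with the pseudogene Gm45225. Reads from those stretches could be counted for either gene or for none. Counts added up over each set of member copies avoid the division between these members. They do not avoid a division with Gm45225 or with the pseudogene Cyp2a21-ps. The latter shared 94 of the 75-base windows of Cyp2a4 and 222 of those of Cyp2a5. The log2 fold change was then -3.04 for Cyp2a4 with Cyp2a5, -1.19 for Cyp2a12 with Cyp2a22 and -6.64 for the Cyp2b genes, and all 3 sums passed the threshold. In that fit 14.6% of all genes passed. The sums hold the same counts on which the family was selected, so nothing is read from their passing. The antisense gene Gm42375, which overlaps the start of Cyp2a4, had 22, 10 and 13 counts in the sham and 0, 1 and 1 in the VSG libraries, and since the strand option of the counting is not given, its reads and those of Cyp2a4 may not have been kept apart.

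The sham animals differed among themselves more in most of these genes than in the median gene. Over the 12906 genes tested with a mean of at least 1 CPM, the median ratio of the highest to the lowest sham library was 1.25, and 1.77% of genes reached 4 times. Among the 7 members, 4 reached 4 times, namely Cyp2b10 (51.6), Cyp2b13 (8.39), Cyp2a4 (5.23) and Cyp2b9 (4.52). Sham 2 was above Sham 3 and Sham 3 above Sham 1 in 5 members (Cyp2a12, Cyp2a22, Cyp2b9, Cyp2b10 and Cyp2b13) and in 27.0% of the 12906 genes. In Cyp2a4 the order was reversed. Nr1i3, the gene of CAR, followed the first order, with 181, 686 and 389 CPM in Sham 1, 2 and 3, and so did Alas1, the first enzyme of haem synthesis, with 382, 1592 and 699 CPM. In the VSG libraries Cyp2a5, Cyp2a12 and Cyp2a22 were highest in VSG 5 and lowest in VSG 4, an order found in 22.9% of the 12906 genes. Cyp2b9 was lowest in VSG 6.

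A further 59 genes were annotated between the members or within 250 kb of them, and none of those tested passed the threshold. Of these 59, 21 lay between the members, and they had 130 counts in all over the 6 libraries, so none of them had enough counts for the test with all libraries. The 16 tested neighbours lay outside, with log2 fold changes of -0.56 to 0.43 and a median of -0.04, against 0.03 for all genes tested. In edgeR's test 0 of 16 passed, 3 had an unadjusted p under 0.05, DESeq2 called 1 (Bckdha) and limma-voom none. The fits without Sham 2, VSG 4 and VSG 5 called 1, 1 and 2, which were Gm42375 and, without VSG 5, also Bckdha (-0.79, adjusted p = 0.0209). Gm42375 is an antisense gene that overlaps the start of Cyp2a4, with 22, 10 and 13 counts in the sham and 0, 1 and 1 in the VSG libraries. Its log2 fold change was -4.23, -3.57 and -4.40 in those fits (adjusted p = 0.0373, 0.0351 and 0.0238), and -4.10 with no filter beyond 1 count (adjusted p = 0.00708). The strand setting of the counting was not given, so its reads and those of Cyp2a4 may not have been kept apart. Cyp2f2, another P450 and the neighbour with the highest level, had 414 ± 65.3 FPKM in sham and 282 ± 109 FPKM in VSG livers by the deposited exon lengths. Its counts of 19056, 21189 and 22128 in sham and 7530, 18290 and 12402 in VSG libraries gave a log2 fold change of -0.55 (SE 0.31), and the CPM of the groups overlapped.

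**Figure D4:**
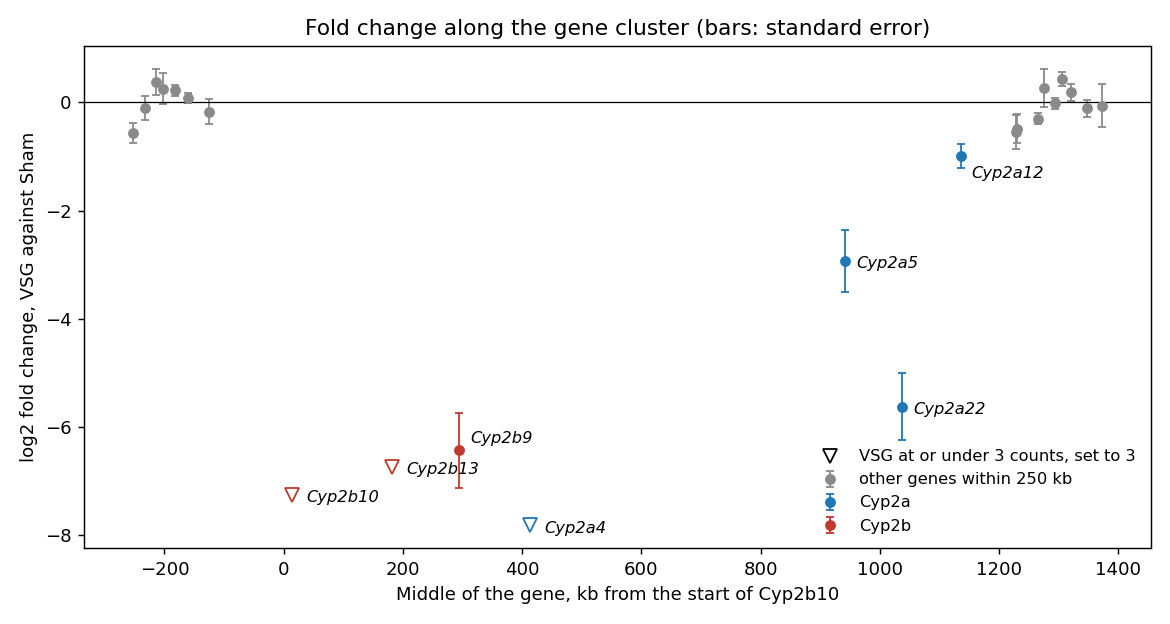
Fitted log2 fold change (VSG against Sham) of the tested members and neighbours by distance in kb from the start of Cyp2b10, with bars for the standard error. Triangles are members whose VSG libraries were all at or under 3 counts, drawn as if each held 3. The 16 grey neighbours with enough counts, which leave out Gm42375, lie between -0.56 and 0.43, and the members at -1.0 (Cyp2a12) or lower.

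Among 26 genes listed as targets of CAR and PXR, 11 fell after VSG and none rose by the same test, and the median log2 fold change was -1.26. The shares over all genes tested, here and for the lists below, were 7.87% lower and 6.79% higher. At an unadjusted p under 0.05, 1 of them was higher, and DESeq2 called 1 higher. The glutathione transferases Gsta2 (log2 fold change -3.81, adjusted p = 0.00742) and Gstm3 (-4.26, adjusted p = 0.0114) fell, and Cyp2c55, a P450 that makes hydroxylated arachidonic acid, fell by 3.29 (adjusted p = 0.0142). Gstm3 had 167, 43.0 and 56.8 CPM in Sham 1, 2 and 3 and 4.66 ± 1.45 CPM in VSG livers. The size of its fold therefore rested in part on Sham 1. Gsta1 had 267, 54 and 135 counts in the sham and 0 in the VSG libraries, at least 42.9-fold lower, or 28.0-fold without Sham 1 (adjusted p = 0.0162). Gsta1, Gsta2 and Gstm3 also have close copies, so their counts are uncertain in the same way. Without Sham 3 or without VSG 6, 4 and 3 of the 26 passed, and of the named genes Gsta2 passed whichever library was left out, Gstm3 in 5 of 6 fits and Gsta1 and Cyp2c55 in 4.

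Of 40 other Cyp2 genes of the annotation, 24 were tested, and 5 fell and none rose by edgeR's test, with a median log2 fold change of -0.39. Of all genes tested, 7.87% fell and 6.79% rose. At an unadjusted p under 0.05 1 was higher, and DESeq2 called 1 higher. Cyp2c55 and Cyp2c38 (-2.47, adjusted p = 0.0178), Cyp2c39 (-2.35, adjusted p = 0.0112) and Cyp2c68 (-0.86, adjusted p = 0.0469) fell, all of them genes of the Cyp2c group, which oxidises arachidonic acid and drugs. Cyp2j6 (-0.62, adjusted p = 0.0473) is named beyond the rule for named genes because it completes the 5. Cyp2c29, a further CAR target named after its values were seen, had 131, 785 and 178 CPM in Sham 1, 2 and 3 against 30.7, 306 and 118 CPM in VSG 4, 5 and 6, and the groups overlapped. The number of calls was 0 without Sham 3, 1 without VSG 6 and 3 without Sham 2, VSG 4 or VSG 5. Cyp2c39 passed in 5 of these 6 fits, Cyp2c55 and Cyp2c38 in 4, and Cyp2c68 (adjusted p from 0.0746 to 0.110) and Cyp2j6 (0.0517 to 0.136) in none. Without Sham 1, 3 fell and Cyp2c70, named after its values were seen, rose (1.04, adjusted p = 0.0383).

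Of 25 regulators of these genes, 4 rose and 2 fell, with a median log2 fold change of -0.09. Of all genes tested, 6.79% rose and 7.87% fell, so the 2 falls were near the share of all genes. Nr1i2, the gene of PXR, fell from 98.1 ± 22.5 to 53.3 ± 7.37 CPM (log2 fold change -0.88, adjusted p = 0.0322), and the coactivator Ppargc1a fell by 0.79 (adjusted p = 0.0371). Nr1i3 had 44.3, 256 and 238 CPM in VSG 4, 5 and 6, and its range overlapped that of the sham libraries (log2 fold change -1.22, SE 0.71, adjusted p = 0.265). Egfr, the epidermal growth factor receptor, rose from 129 ± 39.6 to 2070 ± 234 CPM (4.0, adjusted p = 0.00197). The liver factors Onecut1 (2.40, adjusted p = 0.0341) and Foxa3 (0.67, adjusted p = 0.0230) and the oestrogen receptor Esr1 (0.97, adjusted p = 0.0141) rose too. When 1 library was left out, Egfr passed in all 6 fits, Esr1 in 5, Foxa3 in 2 and Onecut1 in 1. Neither fall passed without Sham 2, Sham 3, VSG 4 or VSG 6 (adjusted p from 0.0776 to 0.131). The 25 held 3, 2 and 2 calls without Sham 2, Sham 3 and VSG 4, all higher, and 4 without VSG 6, of which 2 were among the 6.

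Of 17 genes of redox partners and haem metabolism, 4 fell and 2 rose (all genes tested 7.87% and 6.79%), with a median log2 fold change of -0.57. Por had 280, 545 and 331 CPM in sham and 189, 281 and 215 CPM in VSG libraries, which overlapped (-0.76, adjusted p = 0.115). Alas1 had 109, 214 and 274 CPM in the VSG libraries, all below the sham libraries, with an adjusted p of 0.0513 for a log2 fold change of -2.16 (SE 0.58). Cyb5r3, the reductase of cytochrome b5, fell by 1.23 (adjusted p = 0.0130), and Pgrmc1 (-0.76, adjusted p = 0.0437), Alad (-0.70, adjusted p = 0.0497) and Blvrb (-0.62, adjusted p = 0.0245) fell less. The haem oxygenases Hmox1 (2.11, adjusted p = 0.0163) and Hmox2 (0.48, adjusted p = 0.0216), which break haem down, rose. Without Sham 2 or VSG 4, 2 and 3 of these 6 genes passed, and without Sham 3 or VSG 6 none. Pgrmc1, Alad and Hmox2 passed in 1 of the 6 such fits, the one without VSG 5, Blvrb in 3 and Cyb5r3 and Hmox1 in 4.

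Genes known for a sex difference in liver were counted next. Of 22 female-biased genes besides the members, 8 had enough counts to be tested. Slc22a27 (-3.42, adjusted p = 0.00645), Cyp2c39 and Fmo2 (-1.79, adjusted p = 0.0427) fell. So did Hao2, with 34, 204 and 96 counts in the sham and 1, 1 and 0 in the VSG libraries, a ratio of 147 in summed counts scaled to library size (exact 95% interval for counting error 40.5 to 1222), or 80.9 (21.9 to 675) without Sham 2. None rose, by edgeR at either p or by DESeq2, and the median log2 fold change was -1.64. Of 20 male-biased genes, 19 were tested, and 4 rose (all genes tested 6.79%), with a median of 1.08. They were Mup7 (7.01, adjusted p = 0.0346), a major urinary protein, Serpina1e (5.72, adjusted p = 0.0154), the complement component C6 (1.93, adjusted p = 0.0134) and Gstp1 (1.08, adjusted p = 0.00934). None of the 19 fell, by edgeR at either p or by DESeq2, but in the fit without VSG 5 Mup20, named after its values were seen, fell (-2.14, adjusted p = 0.0238). Mup7 and Serpina1e have close copies. The 4 tested genes of the Y chromosome were expressed in all 6 libraries and none was called, with 1 at an unadjusted p under 0.05. Without Sham 3, 1 female-biased and 1 male-biased gene passed, and without VSG 6, 2 and 1. Slc22a27 passed in all 6 such fits, Gstp1, Serpina1e and Cyp2c39 in 5, Hao2 and C6 in 4, Mup7 in 3 and Fmo2 in 1.

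The genes whose log2 CPM ran most like that of a member over the 6 libraries were found among the 12906 genes and are given as a description, since the 6 points fall into the groups and share each library. For Cyp2b9 they were Pla2g6, a phospholipase (Pearson r = 0.9989), Corin, a protease (0.998), and Chchd6 (0.9976), a mitochondrial protein. Corin had 2.36, 7.77 and 6.84 CPM in Sham 1, 2 and 3 and 0.136, 0.0855 and 0.0477 CPM in VSG 4, 5 and 6. These VSG values were all at or under the floor of 3 counts and cannot be told from absence. For Cyp2b10 they were 1810053B23Rik (0.9974), the GTPase Rab2a (0.996) and the kinase Csnk1g2 (0.9953), of which 1810053B23Rik had 2.55, 11.4 and 3.08 CPM in the sham libraries. For Cyp2a5 they were Rbfa (0.9953), the aldehyde oxidase Aox1 (0.9947) and Timm21 (0.9942). For Cyp2a12 they were the secreted factor Bmp5 (0.9996), Gm15411 (0.9988) and the kinase Ptk2b (0.9977). Likeness of pattern does not take size into account. Bmp5 had 21.3 ± 2.11 and 10.3 ± 3.11 CPM, while Rab2a had 108 ± 7.56 and 91.5 ± 0.341 CPM.

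**Figure D5:**
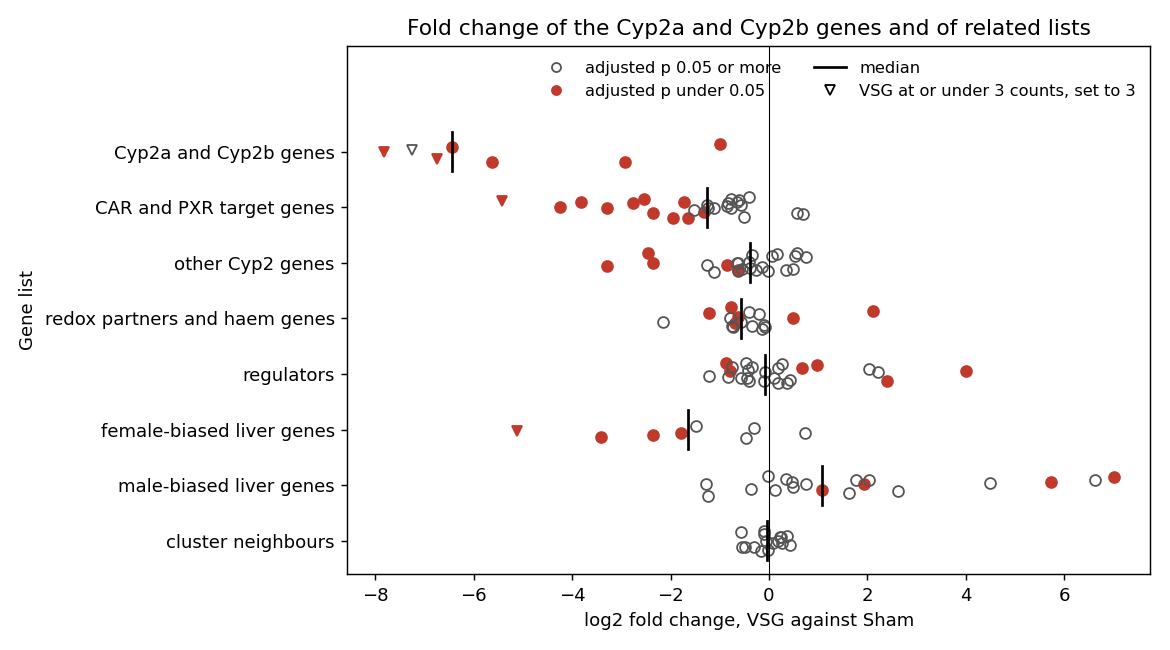
Fitted log2 fold change (VSG against Sham) of the members and of 7 lists of related genes, 1 marker per tested gene, filled red where the adjusted p was under 0.05 and open where it was not. Bars mark medians, from -6.44 for the members to 1.08 for male-biased genes, and triangles are genes whose VSG libraries were all at or under 3 counts, drawn as if each held 3.

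Markers of other cells and of the acute phase moved with the groups. All 15 acute phase genes rose, and their summed level was 19495 to 21440 CPM in sham and 68824 to 142690 CPM in VSG livers. All 11 neutrophil markers rose, from a sum of 7.54 to 22.3 CPM in sham to 1871, 161 and 871 CPM in VSG 4, 5 and 6. Of 7 Kupffer cell and macrophage markers, 4 rose (211 to 419 against 506 to 1533 CPM). Hepatocyte markers summed to 66551 to 111152 CPM in sham and 49431 to 81219 CPM in VSG livers. None of these 9 was called by edgeR. At an unadjusted p under 0.05, 1 was higher and 2 were lower, and DESeq2 also called 1 higher and 2 lower. Of the neutrophil markers, Mpo and Ly6g had no count in Sham 2. Calls depended on single libraries here too. Without Sham 3 and without VSG 6, 1 and 5 acute phase genes, 1 and 1 neutrophil marker and no macrophage marker passed, and without Sham 2 the numbers were 9, 2 and 0. VSG 4 left out gave 2 macrophage calls, Sham 1 left out gave 10 acute phase calls, and limma-voom called 4 neutrophil markers. VSG 5 had the lowest acute phase and neutrophil sums of its group, and VSG 4 the highest. In VSG 4, 5 and 6, Cyp2a22 was 123-fold, 24.3-fold and 96.3-fold, Cyp2a5 21.1-fold, 4.62-fold and 7.66-fold, and Cyp2a12 2.79-fold, 1.58-fold and 1.96-fold below the sham mean, so these Cyp2a genes were lowest in VSG 4 and highest in VSG 5. Cyp2b9 was 76.9-fold, 69.0-fold and 144-fold below it, lowest in VSG 6. Of the other markers, 1 of 5 for bile duct cells rose, but not when Sham 1, Sham 2, Sham 3 or VSG 6 was left out. The other 4 had negative log2 fold changes (median of the list -0.76). The bile duct sums overlapped, at 57.7 to 253 CPM in sham and 73.4 to 200 CPM in VSG livers. None of 6 for sinusoidal endothelial cells, 6 for stellate cells, 6 for lymphocytes and 4 for erythroid cells was called by edgeR. At an unadjusted p under 0.05, 4 stellate markers were lower and 1 erythroid marker higher, and DESeq2 called 3 lower and 1 higher. All 6 stellate markers had negative log2 fold changes (median -0.90), and all 6 lymphocyte markers positive ones (median 0.59). The part of these cells and of the acute phase in the members' difference was not tested.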

How the data were processed

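Per the labels and the study's methods, the authors made strand-specific poly(A) libraries, checked reads with FastQC 0.10.1, aligned them with STAR 2.6.0 to mm10 and counted them with featureCounts (2.0.3 in the submitters' notes, an earlier version in the methods). The deposited values are raw counts per gene and exon lengths in bases. The strand option, annotation release and treatment of reads that fit several genes are not given in the sources used here. Identifiers were matched to GENCODE M21 (54487 of 55385 with the same version). The p-values measure the spread between 3 animals a group, and no pair of libraries of a group agreed within counting noise.

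The quasi-likelihood test of edgeR 4.0.16 (R 4.3.3) was run on genes that passed filterByExpr (minimum count 10, minimum total 15), with TMM factors of 0.897 to 1.15, group as the only term and Benjamini-Hochberg adjustment over 14454 genes. DESeq2 1.42.0, limma-voom (limma 3.58.1), RLE factors, total counts, 2 other filters, a prior count of 2, summed copies and leaving out each library were the alternatives. Exact permutation of 3 against 3 cannot go below p = 0.1 and was not used. A count of 0 was taken to allow 3 counts. Reads carried no molecular identifiers and are not independent molecules, so intervals and floors cover counting error alone. Coding sequences and promoter windows were aligned with Biopython 1.88.

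The members and gene lists were chosen with earlier results of these data known. Beside the members, genes were named if past an adjusted p of 0.05 with a mean of at least 1 CPM, at most 4 a list and direction, besides Nr1i3, Nr1i2, Por, Alas1, neighbours by level and the 3 genes most like Cyp2b9, Cyp2b10, Cyp2a5 and Cyp2a12. Acute phase and cell markers were counted as lists. Named outside this rule, after their values were seen, were Cyp2j6, Cyp2c29, Cyp2c70, Mup20, Hsd3b5, Gm42375, Gstm1, Gstm2, Gstt1, Mpo and Ly6g, and Gm45225 and Cyp2a21-ps for their shared sequence.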

Additional observations from a re-analysis of the deposited data

How the results depend on the processing

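No member changed direction under any alternative. The number of members past the threshold was 6 and lay between 4 and 7 in the other settings with all libraries, and between 2 and 6 when 1 library was left out. Cyp2b9 and Cyp2a22 passed whichever library was left out. Cyp2a12 passed in 2 of the 6 such fits, Cyp2a5 and Cyp2b13 in 3, Cyp2a4 in 5 and Cyp2b10 in 1. With DESeq2 the CAR and PXR list had 17 calls in place of 11, the redox and haem list 10 in place of 6, the male-biased list 7 in place of 4 and the neighbours 1 in place of 0. With no filter beyond 1 count the male-biased list had 8 and the neighbours 1. Leaving out 1 library gave 3 to 13 calls for the CAR and PXR list, 2 to 5 for the regulators, 0 to 6 for the redox and haem list, 1 to 5 for the female-biased list, 1 to 6 for the male-biased list, 0 to 4 for the other Cyp2 genes and 0 to 2 for the neighbours. Over all genes such fits called 159 (without Sham 3) to 2732 (without VSG 5) and DESeq2 called 3288, against 2118. Total counts without composition factors moved the median log2 fold change of all genes from 0.03 to -0.11. The cause of these changes was not tested. No paired analysis was possible because the sample numbers are not shared between the groups. At 22804397 counts or more per library, a gene under about 0.143 CPM could not be told from absence.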

Other observations

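Cyp2a4 was highest in Sham 1 (63.5 CPM against 12.2 and 16.4 in Sham 2 and Sham 3), and 5 of the 6 glutathione transferases of the CAR and PXR list, all but Gstt1, were highest in that library as well. Gstm3 had 167, 43.0 and 56.8 CPM, Gsta1 9.86, 2.47 and 5.13 CPM and Gsta2 21.2, 12.9 and 8.97 CPM in Sham 1, 2 and 3. The differences were smaller for Gstm1 (1272, 1064 and 971 CPM) and Gstm2 (33.9, 31.1 and 23.6 CPM). Among the sham animals, Cyp2b9, Cyp2b10 and Cyp2b13 were lowest in the same animal. Among the male-biased genes that did not pass the threshold, Hsd3b5, a steroid dehydrogenase, had 0.0739, 0.685 and 0.0380 CPM in the sham libraries and 0.0905, 38.6 and 35.3 CPM in VSG 4, 5 and 6. The values of VSG 4 were apart from the sham range in Egfr (1915 against 85.9 to 163 CPM), Serpina1e (4487 against at most 242 CPM) and Mup7 (25.0 against 0.369 to 6.99 CPM). The VSG mean of Mup7 was 326 ± 272 CPM, so VSG 4 was far below its own group there. All 20 male-biased genes together had 5668 CPM in VSG 4, and 10970 and 10113 CPM in VSG 5 and 6. Hsd3b5, Egfr, Serpina1e and Mup7 were chosen here after their values were seen.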
